A study of Mus musculus with 6 samples.

Results

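The 10 genes described here make, move or break down arginine: Ass1, Asl, Arg1, Arg2, Nos2, Oat, Otc, Gatm, Slc25a15 and Slc25a29. They form a set by function, and membership required no particular value on the arrays, although earlier results of these data were known. All 10 were found among the 22180 mouse genes that the arrays measured with probe sets of exactly 1 gene symbol, and each was measured by 1 probe set. RNA came from CD4+ T cells of OT II transgenic mice, whose receptor recognises an ovalbumin peptide. The mice were housed together and were 12 to 16 weeks old, and the description of the study names 6 of them. T cells from spleen and lymph nodes, negatively selected for CD4+, were cultured for 72 hours with antigen-presenting cells and the OVA323-329 peptide (0.1 μm, residues and unit as labelled). The control group (3 arrays) was cultured in complete RPMI-1640 with 10% dialyzed FBS. The low arginine group (3 arrays) had the same serum in RPMI-1640 with arginine at 1% of normal, which is 12 uM. CD4+ cells were purified again from the co-cultures before RNA extraction, so both groups share the transgene, the peptide and the exposure to antigen-presenting cells. The labels call the replicates biological but do not tie an array to a mouse.

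Arginine can be taken up from the medium or made inside the cell from citrulline. Argininosuccinate synthase (Ass1) joins citrulline to aspartate, and argininosuccinate lyase (Asl) splits the product into arginine and fumarate. Arginases (Arg1, Arg2) cut arginine to ornithine and urea, inducible nitric oxide synthase (Nos2) turns it into nitric oxide and citrulline, and Gatm uses it to make the precursor of creatine. Activated T cells need arginine to grow, and myeloid cells that carry Arg1 or Nos2 can remove it from their surroundings.

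Ass1 is usually the limiting step of this synthesis, and its transcription is known to be set through a GC-rich promoter to which Myc, HIF-1α and Sp factors bind. Its promoter is shown for that reason, as the 250 bases before the gene's start on the plus strand (RefSeq, build GRCm38.p6, chr2:31470020-31470269). Capitals mark a GC box (GGGCGG) and an E-box (CACGTG).
Ass1 promoter: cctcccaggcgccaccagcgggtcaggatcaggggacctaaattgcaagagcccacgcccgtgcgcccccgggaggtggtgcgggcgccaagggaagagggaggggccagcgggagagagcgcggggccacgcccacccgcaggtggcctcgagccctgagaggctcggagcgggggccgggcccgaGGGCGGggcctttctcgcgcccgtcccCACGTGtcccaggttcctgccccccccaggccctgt
The E-box spans bases 36 to 31 before the start and the GC box bases 63 to 58. On either strand, CACGTG was present in 6.02% and GGGCGG in 32.7% of the 32851 mouse promoters of the same length. The core of the amino acid response element through which ATF4 acts, searched as TGATGNAA on both strands, was in 3.45% of promoters and had no match in this window. Promoters of 6 of the 10 genes were in the table (Ass1, Gatm, Oat, Otc, Slc25a15 and Slc25a29; 7 entries), and none of the 7 held TGATGNAA. These matches describe the letters of the windows and say nothing of binding in these cells.

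The log2 values of the 6 arrays spanned 0.956 to 12.41, with medians of 2.97 to 3.03. The medium separated the arrays along the first principal component (60.5% of the variance). The second (22.5%) set control replicate 1 apart, with a score of 35.15 against -8.53 and -22.33 for the other controls. Genes with a mean under 2.48, the lowest 1 in 3, were treated as dim and left out of the comparison. That removed Otc and left 9 of the 10 genes among the 14787 tested. Precision is limited by having 3 arrays a group. The p-values set each difference against the spread within the groups of these 6 samples, moderated by that of all genes tested.

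None of the 9 genes tested passed an adjusted p of 0.05 (limma with Benjamini-Hochberg adjustment over all genes tested), where 12.2% of all genes did. Over all genes, 5.19% passed as higher and 6.98% as lower. Of the 9, 3 lay higher and 6 lower in low arginine. Their median difference was -0.05 on the log2 scale, against 0.01 over all genes tested. At an unadjusted p below 0.05 there were 2, Asl and Nos2, against a background of 27.3%. The groups did not overlap for 2, Asl and Arg2, against 32.2% of all genes. Each of these shares is near or under its background. As in any bulk sample, fewer cells that carry a transcript and less of it per cell cannot be told apart.

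**Figure D1:**
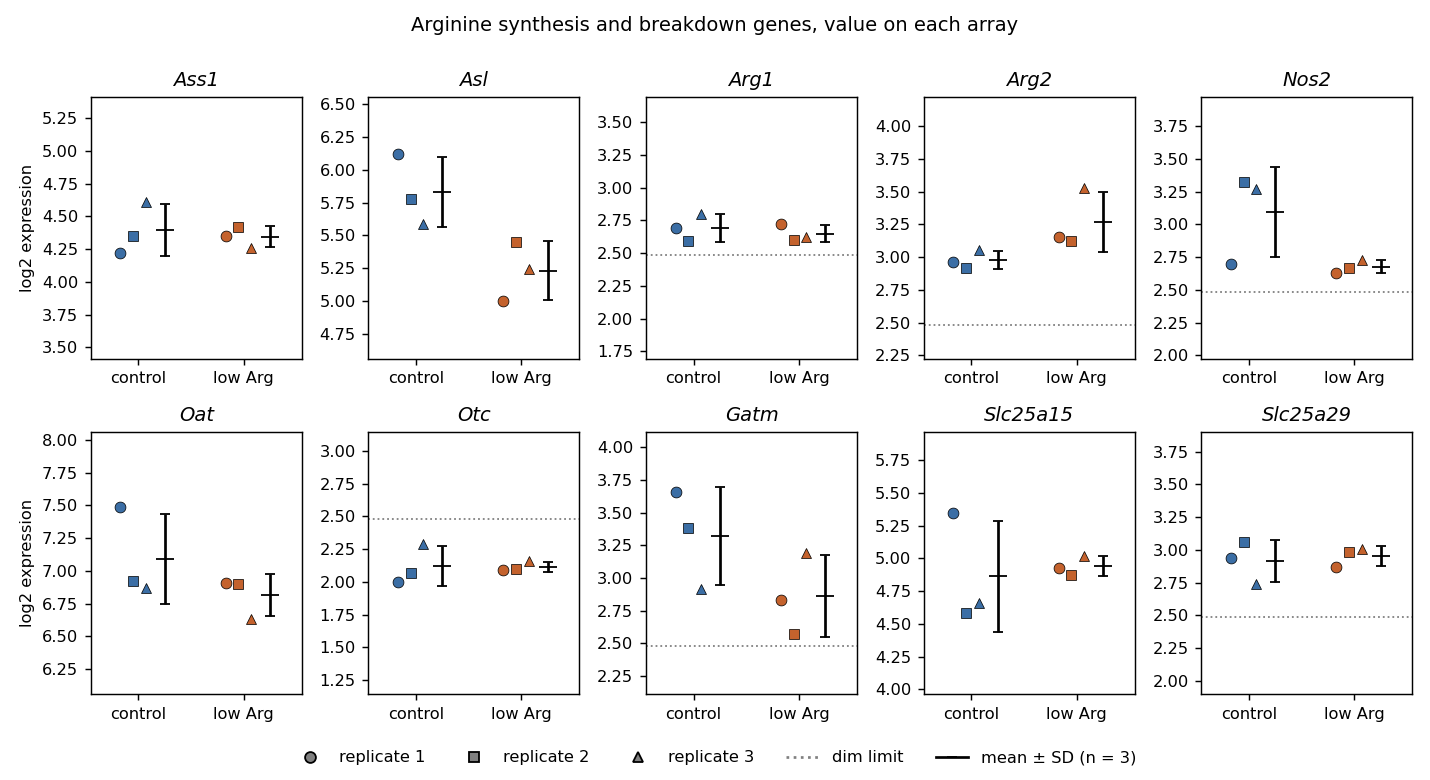
Log2 expression of the 10 genes on each array (circles, squares and triangles are replicates 1, 2 and 3), with the mean and SD of each group (n = 3) and the limit for dim genes at 2.48 as a dotted line. The panels have their own axes. Asl and Arg2 have no overlap between the groups, and control replicate 1 is the highest array for Asl, Oat, Gatm and Slc25a15.

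Of the synthesis enzymes, Ass1 showed no difference beyond its spread, while Asl lay lower on every low arginine array. Ass1 measured 4.22, 4.35 and 4.61 in control replicates 1 to 3 and 4.35, 4.42 and 4.26 in low arginine. The groups overlapped fully, with the highest and the lowest array both controls. The difference was -0.05 (limma SE 0.13, n = 3 per group, adjusted p = 0.864), with a 95% interval of -0.35 to 0.25. That interval spans levels from 0.785 to 1.19 times control, so larger changes of the Ass1 transcript lie outside it.

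Asl measured 6.12, 5.78 and 5.59 in control and 5.00, 5.45 and 5.24 in low arginine. Every control array was above every low arginine array, although only 0.14 separated the nearest ones. The group means were 5.83 ± 0.27 and 5.23 ± 0.22 (SD, n = 3), a difference of -0.59 (95% interval -1.0 to -0.19), or 1.51-fold lower in low arginine. Among the 10 genes this difference had the smallest p, but it did not pass after adjustment (limma, unadjusted p = 0.00961, adjusted p = 0.0657). It passed under array weights, which count arrays far from the fit less (-0.51, adjusted p = 0.00903), in a fit that called 37.3% of all genes. The 14 other alternatives tried gave adjusted p of 0.0545 to 0.191. Without control replicate 1 the difference was -0.45 (95% interval -0.8 to -0.1, limma adjusted p = 0.0726). Leaving out single arrays gave -0.71 to -0.45.

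Since Ass1 and Asl act in sequence, their difference was also taken within each array, a comparison chosen after the values were seen. Asl minus Ass1 was 1.89, 1.42 and 0.98 in control and 0.65, 1.02 and 0.98 in low arginine. The groups overlapped, control replicate 3 lying among the low arginine arrays. The means were 1.43 ± 0.46 and 0.88 ± 0.20 (SD, n = 3). An exact two-sided permutation test gave p = 0.3, where 3 arrays against 3 cannot go below p = 0.1. The values are given as a description.

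The 3 genes whose values followed Asl most closely over the 6 arrays were Cpt2 (Pearson r = 0.992), Wdfy2 (0.991) and Capza1 (0.991), of 14786 compared. Cpt2, a mitochondrial enzyme of fatty acid oxidation, measured 6.13, 5.84 and 5.73 in control and 5.13, 5.49 and 5.41 in low arginine. As with Asl, control replicate 1 was its highest array and low arginine replicate 1 its lowest. Cpt2 differed by -0.55, Capza1, an actin capping subunit, by -0.45 and Wdfy2 by -0.28, none past the threshold (limma adjusted p = 0.0534, 0.091 and 0.189). The likeness rests on 6 arrays and on the shared high value of control replicate 1, and is given as a description.

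The arginases did not differ beyond their test either. Arg1, the cytosolic form that is abundant in liver and in some macrophages, measured 2.69, 2.59 and 2.80 in control and 2.72, 2.60 and 2.62 in low arginine. The highest of the 6 values lay 0.32 above the limit for dim genes, and whether they exceed background is not known, since no detection call was used here. The difference was -0.04 (95% interval -0.30 to 0.21, limma adjusted p = 0.852).

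Arg2, the mitochondrial arginase, was the gene with the largest positive difference among the 10. It measured 2.96, 2.92 and 3.05 in control and 3.15, 3.12 and 3.53 in low arginine. Every low arginine array was above every control, with replicate 3 well above the other two. The difference was 0.29 (95% interval -0.03 to 0.61, limma adjusted p = 0.229), and 0.16 (adjusted p = 0.548) without low arginine replicate 3. With array weights it was 0.32 and passed (adjusted p = 0.047), in a fit that called 37.3% of all genes.

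Nos2, which makes nitric oxide in bulk in stimulated macrophages and also in some T cells, had a difference whose size followed the control arrays used. It measured 2.70, 3.32 and 3.27 in control and 2.63, 2.67 and 2.73 in low arginine. Control replicates 2 and 3 stood above all low arginine arrays, and control replicate 1 lay among them. Over all arrays the difference was -0.42 (95% interval -0.82 to -0.02, unadjusted p = 0.0437, limma adjusted p = 0.168). Without control replicate 1 it was -0.62 (95% interval -0.86 to -0.38) and passed (adjusted p = 0.00585). In that fit 22.5% of all genes passed, and Nos2 was the one gene of the 9 that did. Array weights gave a similar value (-0.61, adjusted p = 0.00188), where 37.3% of all genes passed. The difference shrank to -0.31 without control replicate 2 and to -0.33 without control replicate 3 (limma adjusted p = 0.421 and 0.34). Those fits called 3.38% and 9.24% of all genes. Leaving out a low arginine array gave -0.45 to -0.39 (adjusted p = 0.293 to 0.338). The highest low arginine value lay 0.25 above the dim limit, so the size of this difference is uncertain.

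Ornithine aminotransferase (Oat), which links ornithine to proline and glutamate in mitochondria, measured 7.49, 6.92 and 6.87 in control and 6.91, 6.90 and 6.63 in low arginine. Control replicate 1 stood apart, and the other controls were at the level of low arginine replicates 1 and 2. The difference was -0.28 (95% interval -0.71 to 0.15, limma adjusted p = 0.4) and shrank to -0.08 (adjusted p = 0.713) without control replicate 1.

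Ornithine transcarbamylase (Otc), the liver and gut enzyme that makes citrulline from ornithine, measured 2.00, 2.07 and 2.29 in control and 2.09, 2.10 and 2.16 in low arginine. All 6 arrays were under the dim limit. In the fit without a filter, which called 7.88% of genes, the difference was 0 at 2 decimals (95% interval -0.25 to 0.24, limma adjusted p = 0.99).

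Slc25a15 carries ornithine and citrulline across the inner mitochondrial membrane, and Slc25a29 carries basic amino acids, arginine included, into mitochondria. Slc25a15 measured 5.35, 4.58 and 4.66 in control and 4.93, 4.87 and 5.02 in low arginine. The low arginine arrays lay close together, between control replicate 1 above and the other controls below. The difference was 0.08 (95% interval -0.40 to 0.55, limma adjusted p = 0.861), and 0.32 (95% interval 0.07 to 0.57, adjusted p = 0.0717) without control replicate 1. Its sign turned to -0.06 and -0.02 without control replicates 2 and 3.

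Slc25a29 measured 2.94, 3.06 and 2.74 in control and 2.87, 2.98 and 3.01 in low arginine, at most 0.57 above the dim limit. The groups overlapped, and the difference of 0.04 (95% interval -0.24 to 0.32, limma adjusted p = 0.866) was smaller than the SD of either group. Its sign turned to -0.02 with arrays centred on their 75th percentile, -0.07 with array weights and -0.04 without control replicate 3.

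Gatm, which moves the amidino group of arginine onto glycine as the first step of creatine synthesis, measured 3.66, 3.38 and 2.92 in control and 2.83, 2.57 and 3.19 in low arginine. The groups overlapped, with low arginine replicate 3 above control replicate 3. The highest low arginine value lay 0.71 above the dim limit. The difference was -0.45 (95% interval -0.97 to 0.07, limma adjusted p = 0.246), the least precise of the 10 (SE 0.22). It was -0.28 (adjusted p = 0.391) when control replicate 1 was left out and -0.31 (0.55) when low arginine replicate 2 was. With array weights it passed (-0.51, adjusted p = 0.0298), where 37.3% of all genes did.

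**Figure D2:**
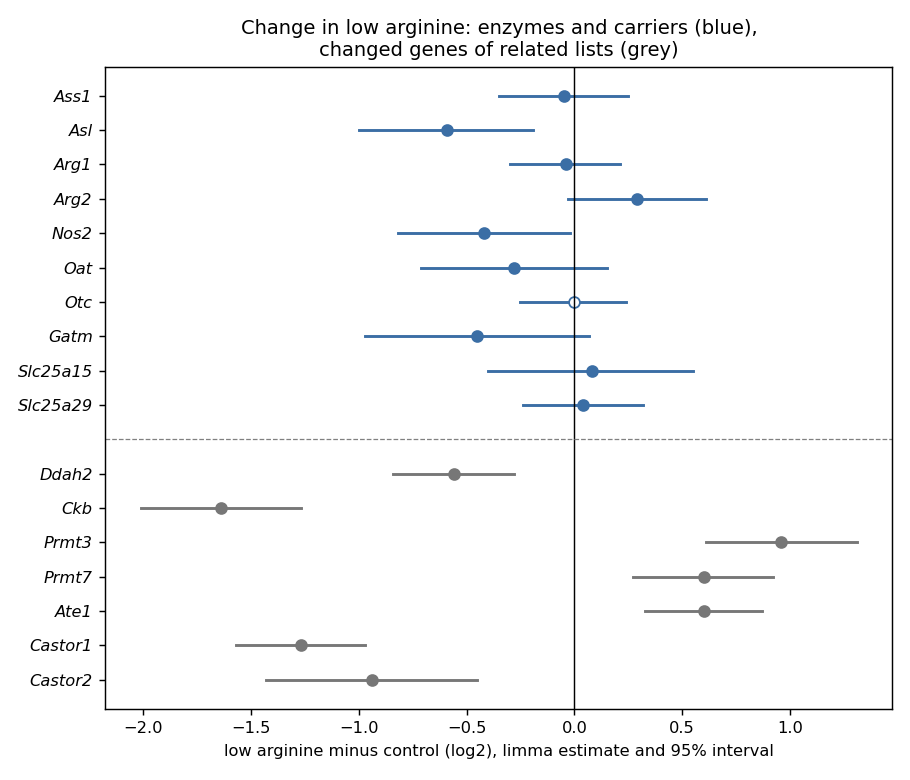
Difference between low arginine and control for the 10 genes (blue) and for the changed genes of the related lists (grey), as limma estimates with 95% intervals on the log2 scale. The open symbol is Otc, which was under the dim limit. Intervals of Asl and Nos2 leave out 0 before adjustment, and no blue gene passes after it.

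The controls varied more than the low arginine arrays for 9 of the 10 genes, as they did for 66.2% of all genes tested. Their SD ran from 0.07 to 0.43, against 0.04 to 0.31 in low arginine, and Arg2 was the exception. Control replicate 1 was the highest of all 6 arrays for 4 of the 9 genes tested (Asl, Oat, Gatm and Slc25a15), against 22.5% of all genes. It lay 0.44, 0.60, 0.51 and 0.73 above the mean of the other controls for these, and 0.59 below it for Nos2. The part of this array in each difference is what the values without it show. What sets the array apart was not tested.

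**Figure D3:**
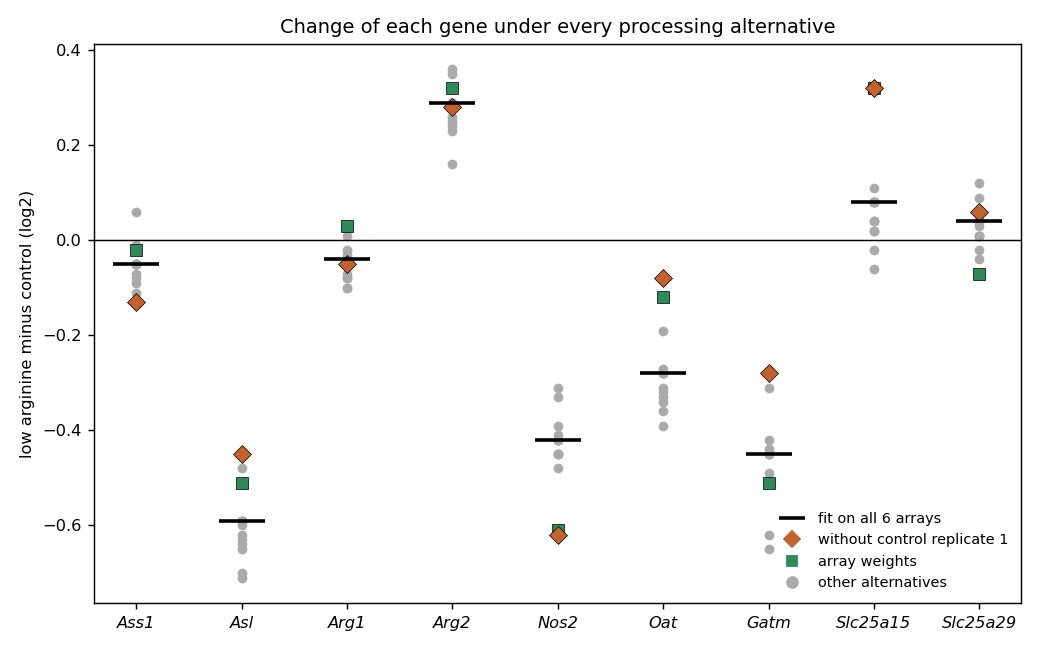
Difference between low arginine and control (log2) for the 9 genes tested, in the fit on all 6 arrays (black bar) and under each alternative (points). Leaving out control replicate 1 (diamonds) moves Nos2 from -0.42 to -0.62, Oat from -0.28 to -0.08 and Slc25a15 from 0.08 to 0.32.

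Markers of the cells that could carry Arg1 or Nos2 into the purified cells were looked at on the same arrays. The 9 T cell markers measured, among them Cd3e and Cd4, averaged 9.19 to 9.29 in control and 9.09 to 9.27 in low arginine, and none changed. Of 11 macrophage and monocyte markers, 8 were under the dim limit, Adgre1, Lyz2 and Cd14 included. The average of all 11 was 2.54 to 2.61 in control and 2.61 to 2.67 in low arginine. The lysosomal protein Cd68, which other cells also make, was an exception at 5.28 and 5.49. Of 9 neutrophil markers 5 were dim (averages of all 9, 2.39 to 2.53 and 2.37 to 2.46). Of 7 B cell markers 2 were (averages of all 7, 2.59 to 2.71 and 2.61 to 2.68).

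Dendritic cell markers averaged 3.63 to 3.69 in control and 3.64 to 3.72 in low arginine, with 1 of 7 dim. In that list Cd209a stood far above the limit, with means of 7.87 and 8.06, and Batf3 had means of 4.61 and 3.89 (limma adjusted p = 0.584 and 0.142). CD8 T and NK cell markers averaged 3.49 to 3.79 and 3.47 to 3.56, with 3 of 7 dim. In that list Cd8b1 had means of 6.90 and 6.24 and Eomes, which went the other way, of 4.69 and 5.48 (limma adjusted p = 0.0632 and 0.0779). Cd8a had means of 3.46 and 2.85 and Klrd1 of 4.10 and 3.49 (limma adjusted p = 0.241 and 0.177). Over the list, control replicate 1 had the lowest average of the controls, at 3.49 against 3.76 and 3.79, as it had for Nos2. Single markers differed there. In that array Cd8a lay 1.04, Klrd1 0.88 and Cd8b1 0.57 below the mean of the other controls, and Eomes lay 0.77 above it. Of the dim markers, Ncr1 lay 0.19 and Klrb1c 0.12 below it and Klre1 0.03 above. The part of these cells in the Nos2 values was not tested. No marker of any of the 6 lists passed the test.

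Genes next to these enzymes in arginine use were read from 6 lists. Of 57 genes listed, 50 were measured by a probe set of their own and 45 were tested. Of these 3 rose and 4 fell, or 15.6% against the 12.2% of all genes, with a median difference of 0.00. The lists were chosen with earlier results of these data known, so their shares are a description. The calls lay in arginine sensing, creatine, nitric oxide control and the modification of arginine in proteins.

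The cytosolic arginine sensor Castor1 and its homologue Castor2 fell. Castor1, which senses arginine and holds back GATOR2 and so mTORC1 when arginine is scarce, measured 6.65, 7.05 and 6.89 in control and 5.53, 5.60 and 5.65 in low arginine. No low arginine array came near a control, a 2.41-fold fall (difference -1.27, 95% interval -1.57 to -0.97, limma adjusted p = 0.00222). Castor2, which also binds GATOR2, measured 5.46, 5.91 and 5.84 against 4.54, 4.61 and 5.23, with low arginine replicate 3 nearest the controls. Castor2 fell by 0.94 (adjusted p = 0.0286). The call ended without control replicate 2 or 3 (adjusted p = 0.114 and 0.0731) or low arginine replicate 1 or 2 (0.0929 and 0.115). Those fits called 3.38%, 9.24%, 6.73% and 3.44% of all genes. Without any single array the difference lay between -1.16 and -0.82. The lysosomal sensor Slc38a9 and Tm4sf5 did not pass (2 of 4 genes called). With all 6 arrays 12.2% of all genes tested passed, and 6.98% passed as lower.

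In the creatine list 1 of 6 genes changed (16.7%, against 12.2% of all genes). Ckb, the brain-type creatine kinase, measured 8.64, 8.34 and 8.53 in control and 6.98, 7.05 and 6.56 in low arginine. The groups were far apart, a 3.12-fold fall (difference -1.64, 95% interval -2.01 to -1.27, limma adjusted p = 0.00197), larger than any difference among the 10 enzymes and carriers. In the nitric oxide list 1 of 10 changed (10.0%, against the same 12.2%). Ddah2, of the family that clears methylated arginines that inhibit nitric oxide synthases, measured 3.80, 3.84 and 4.04 against 3.20, 3.43 and 3.37. The groups did not overlap and Ddah2 fell by 0.56 (adjusted p = 0.0251), but the call held without control replicate 1 and ended without each of the other arrays (adjusted p = 0.0596 to 0.0855).

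Among genes that charge, methylate, citrullinate or transfer arginine, 3 of 12 rose and none fell (median difference 0.36). Over all genes tested 5.19% rose and 6.98% fell, with a median difference of 0.01. Prmt3, an arginine methyltransferase of ribosomal protein S2, measured 7.11, 6.83 and 6.60 in control and 7.69, 7.91 and 7.82 in low arginine. It rose by 0.96 (limma adjusted p = 0.00927), or 1.94-fold, with no overlap. The call ended without low arginine replicate 2 (adjusted p = 0.0511).

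Prmt7, which monomethylates arginine, measured 6.06, 5.67 and 5.63 against 6.36, 6.45 and 6.33 and rose by 0.60 (limma adjusted p = 0.0321). Ate1, which attaches arginine to the ends of proteins, measured 6.41, 6.12 and 6.24 against 6.88, 6.79 and 6.90 and rose by 0.60 (adjusted p = 0.0169). The groups overlapped for neither gene. The call of Prmt7 ended on leaving out any array but control replicate 1 (adjusted p = 0.0788 to 0.123), with the 75th percentile as centre (0.0541) and with the replicate number as a block (0.0501). That of Ate1 ended without control replicate 2 (adjusted p = 0.0732) or any low arginine array (0.0591 to 0.0753). With control replicate 1 left out the list had 7 rises among 12 genes, or 58.3%, in a fit that called 22.5% of all genes. The list had 2 on leaving out control replicate 3 (16.7%, against 9.24% of all genes). It had 1 (8.33%) on leaving out control replicate 2, or replicate 1 or 3 of low arginine. Those fits called 3.38%, 6.73% and 4.0% of all genes. On leaving out replicate 2 of low arginine the list had 0, where 3.44% of all genes passed.

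Of 4 genes at the entry of the urea cycle and 9 that link ornithine to proline and glutamate, none passed, where 12.2% of all genes did. Without control replicate 1, 2 of the latter did, Odc1, which makes putrescine from ornithine, as a rise and Pycrl, a pyrroline-carboxylate reductase, as a fall (22.2%, against 22.5% of all genes in that fit). The largest difference in the first list was that of Slc25a13, the mitochondrial carrier that exports aspartate for Ass1. It measured 6.18, 4.87 and 4.25 in control and 4.66, 4.10 and 4.08 in low arginine, with a wide spread among the controls. The difference was -0.82 (95% interval -1.85 to 0.21, limma adjusted p = 0.289). It was -0.28 (adjusted p = 0.459) on leaving out control replicate 1 and -1.25 (0.0932) on leaving out control replicate 3. In the second list Aldh18a1, which starts ornithine and proline synthesis from glutamate, measured 7.60, 7.79 and 7.39 against 7.94, 7.92 and 8.01. The groups did not overlap, and the difference of 0.36 missed the threshold (95% interval 0.07 to 0.66, limma adjusted p = 0.111).

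**Figure D4:**
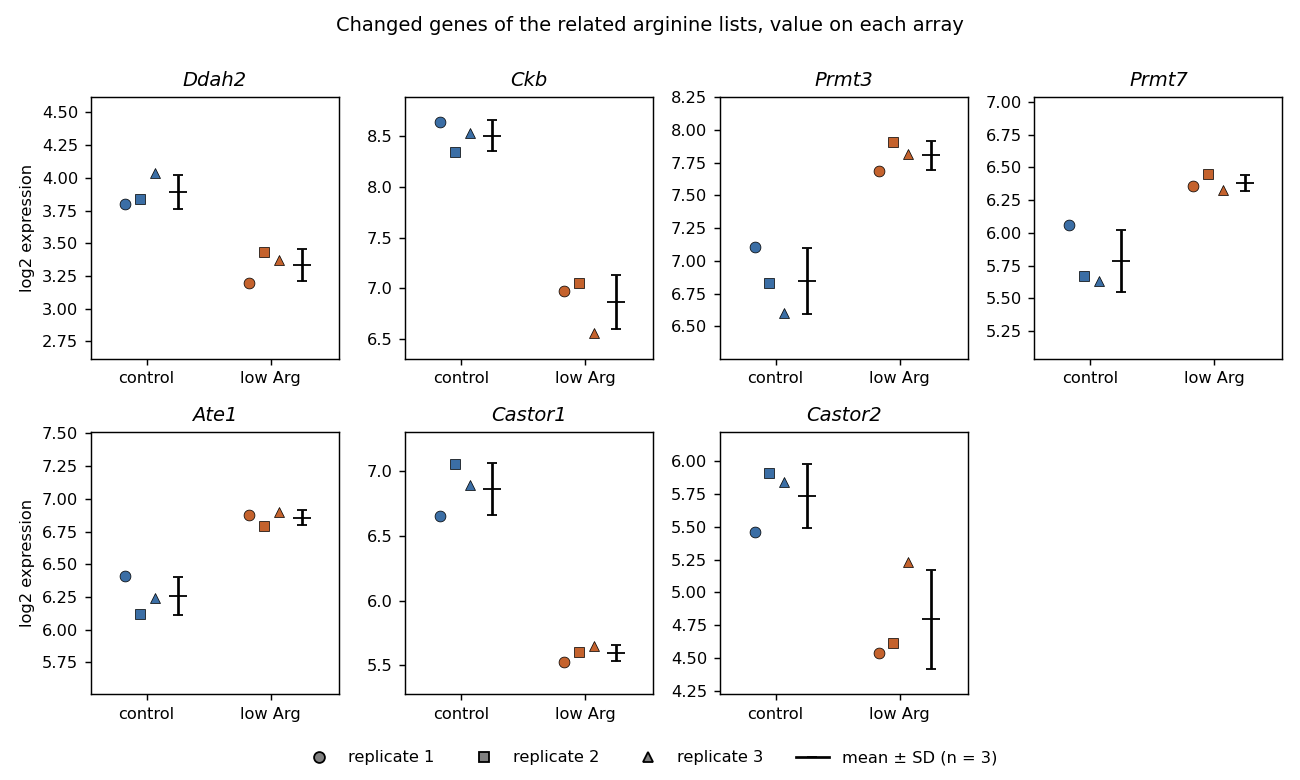
Log2 expression of the 7 changed genes of the related lists on each array (circles, squares and triangles are replicates 1, 2 and 3), with the mean and SD of each group (n = 3). The panels have their own axes. No gene overlaps between the groups: Prmt3, Prmt7 and Ate1 are higher in low arginine and the other 4 lower.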

How the data were processed

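Values are the authors' deposited log2 expression values per probe set, from 1-colour Affymetrix whole-transcript arrays of total RNA. The submitters' processing notes name oligo. Not given in the sources used here: its version, the background correction, the normalization and the log base, which was taken as 2 from the range. After sorting, the 6 arrays lay within 0.199 of each other. Of 41345 probe sets, 23521 carried 1 gene symbol in the platform annotation, and the brightest by mean over 6 arrays stood for its gene (22180 genes). The lowest 1 in 3 by mean were left out.

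The comparison used limma 3.58.1 (R 4.3.3) with lmFit and eBayes, a two-sided test with the group as its one term (degrees of freedom 4 residual, 3.69 prior), checked on simulated data, with Benjamini-Hochberg adjustment over 14787 genes at a threshold of 0.05. Differences are low arginine minus control. The 10 genes are described whatever their result. From each related list the called genes are named, at most 4, or else the one with the largest difference, and for the member with the smallest p the 3 genes of highest Pearson r. Members and lists were chosen with earlier results of these data known. Listed genes without a probe set of their own were not analysed here. Sequences come from RefSeq (GRCm38.p6). Figures were drawn with matplotlib 3.10.9.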

Additional observations from a re-analysis of the deposited data

How the results depend on the processing

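The count of genes changed (1799) and of related genes changed (7) followed the choice of arrays: leaving out each array in turn gave 500 to 3325 and 2 to 13. Without any array but control replicate 1, 3.38% to 9.24% of all genes passed, against 12.2% with all 6. Differences moved less than the calls. Leaving out single arrays, Ddah2 lay between -0.61 and -0.49 and Prmt3 between 0.83 and 1.09. Prmt7 lay between 0.52 and 0.73 and Ate1 between 0.53 and 0.68. With array weights 5514 genes, 4 of the 9 enzymes and carriers (Asl, Arg2, Nos2 and Gatm) and 13 of 45 related genes passed (44.4% and 28.9%, against 37.3% of all genes in that fit). Leaving out each array in turn, 0 or 1 of the 9 passed, the 1 being Nos2 without control replicate 1. Their median difference, -0.05, lay between -0.10 and -0.03 on leaving out single arrays. It was -0.13 after quantile normalization, -0.08 and -0.11 with arrays centred on the median or the 75th percentile, and -0.16 with 0.5 of genes left out as dim, which drops Arg1, Arg2, Nos2, Gatm and Slc25a29. Differences near 0 changed sign. Leaving out single arrays, Ass1 ranged from -0.13 to 0.06, Arg1 from -0.10 to 0.01, Slc25a15 from -0.06 to 0.32 and Slc25a29 from -0.04 to 0.12. With array weights Arg1 was 0.03 and Slc25a29 -0.07, and Slc25a29 was -0.02 with the 75th percentile as centre. Where no value shows it, the cause was not tested. Oat kept its direction and stayed short of the threshold in all 15 alternatives, and Asl, Nos2, Gatm and Arg2 kept their direction in all that measured them.

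The replicate numbers did not clearly pair the arrays. Deviations from the group means correlated at 0.121, 0.059 and 0.141 between arrays of the same number, and each array correlated best with its own number, a hint from the data and not the design. With the replicate number as a block 1568 genes passed and none of the 9, with Asl at an adjusted p of 0.102.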
